A study of Homo sapiens with 6 samples.

Results

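The genes of the heat-shock response examined here are those whose proteins work outside the endoplasmic reticulum (ER), measured in U87 cells exposed to rutaecarpine. They were taken by gene name from a table of 60671 genes, and all 10 members were listed: HSPA1A, HSPA1B, HSPA8, HSPH1, HSP90AA1, HSP90AB1, DNAJB1, HSPB1, HSPD1 and HSPE1. U87 is an established human glioblastoma cell line. The cells received 100 μM rutaecarpine, a plant alkaloid that activates the aryl hydrocarbon receptor (AhR), or 0.1% DMSO as solvent control, both for 48 h in serum-free medium, and the rutaecarpine stock was itself dissolved in DMSO. There were 3 libraries per group. Nothing in the labels says that they came from separate cultures, so the p-values measure the spread between these libraries, which may be technical.

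Levels are given in TPM, in which estimated reads are divided by transcript length and brought to the same total in each library. How many reads lie behind a value is therefore unknown. Tests were run with limma on log2(TPM + 1) over 14377 genes with 3 or more libraries at 1 TPM or above, and a Benjamini-Hochberg adjusted p of at most 0.05 counted as a call. Control library 3 stood apart from the others over all genes, with a median log2(TPM + 1) of 3.56 against 3.97 and 3.95 in control libraries 1 and 2, and among the tested chaperones it deviated from the mean of those libraries by between -0.58 (HSP90AA1) and 0.35 (HSPB1) on that scale. Results are therefore given with and without it where they depend on it. The mesenchymal genes VIM (4430 to 7968 TPM), CD44 (415 to 837 TPM) and CHI3L1 (1849 to 2947 TPM) were abundant in all libraries. The glial markers S100B and SOX2 were at most at 0.25 and 0.06 TPM, and GFAP was between 3.48 and 5.41 TPM. NES (12.3 to 21.0 TPM) and the neuronal marker SYT1 (2.74 to 5.06 TPM) were also present. Of the markers listed for blood, CD68 stood between 319 and 511 TPM, while PTPRC was at most at 0.03 TPM. VIM was called lower after rutaecarpine (log2 fold change -0.63, limma adjusted p = 0.00894), as were SPARC, NES and CD68. CD44 and CHI3L1 were not called. CYP1B1, an AhR target that served to check the treatment, stood at 84.7, 82.4 and 42.8 TPM in the control libraries and at 411, 335 and 423 TPM after rutaecarpine.

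Heat-shock proteins bind unfolded or partly folded proteins. When unfolded protein builds up in the cytosol, the heat-shock factor HSF1 is released from chaperones, forms trimers and binds heat-shock elements, repeats of the unit GAA in alternating orientation, in front of these genes. Unfolded protein in the ER is sensed by a different system, the unfolded protein response, which raises ER chaperones through the ER stress element. The cytosolic HSP90 machinery also has a place in AhR signalling, because the receptor that has not bound a ligand rests in the cytosol in a complex with HSP90 and the co-chaperone p23.

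The promoter stretches below show matches to the heat-shock element and the ER stress element, so that the levels that follow can be read beside them. They are RefSeq sequence on GRCh38.p14, printed 5′ to 3′ on the strand of the gene, with the matched element in capitals. The windows searched reached from 250 bases before to 50 bases after the RefSeq start of each gene, and all 10 members had an entry.
HSPA1A, chr6:31815397-31815463, plus strand: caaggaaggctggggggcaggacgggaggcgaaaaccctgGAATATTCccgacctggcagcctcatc
HSPA1B, chr6:31827593-31827680, plus strand: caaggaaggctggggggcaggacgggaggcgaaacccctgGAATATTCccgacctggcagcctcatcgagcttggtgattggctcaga
HSPB1, chr7:76302451-76302538, plus strand: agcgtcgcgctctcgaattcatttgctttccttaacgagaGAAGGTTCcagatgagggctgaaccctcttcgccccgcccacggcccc
HSPA5 (ER, for comparison), chr9:125241351-125241449, minus strand: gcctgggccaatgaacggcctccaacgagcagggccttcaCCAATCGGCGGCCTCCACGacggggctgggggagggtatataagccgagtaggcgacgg

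The heat-shock element with 2 units (GAANNTTC or TTCNNGAA) was found in 4 of the 10 members, HSPA1A, HSPA1B, HSPB1 and HSPA8, and in 13.7% of the 27305 promoters searched. The element with 3 units (GAANNTTC followed by NNGAA, or TTCNNGAA followed by NNTTC, which contains the former) was found in 1 member, HSPA8, against 0.487% of all promoters. HSPA8 held it in a pair of places, GAAAGTTCCAGAA starting 230 bases upstream of the start and TTCTGGAAGGTTC starting 55 bases upstream. The ER stress element (CCAAT and CCACG separated by 9 bases) was found in none of the 10 members, in 5 of 14 ER chaperones with an entry and in 0.0806% of all promoters. The dioxin response element to which AhR binds (TNGCGTG or CACGCNA) was found in 1 member, HSP90AA1, just downstream of its start, and in 5.51% of all promoters. All motifs were searched on both strands. A match is only a string of letters, and its absence says nothing about a factor, since these windows are short.

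None of the 9 chaperones that were tested passed the adjusted p, in either direction, where 9.29% of all genes did, 4.6% higher and 4.68% lower. At an unadjusted p under 0.05 limma gave 4 of the 9 (HSPH1 higher, HSPA8, HSPB1 and HSPE1 lower), against 24.4% of all genes. The same 4 genes, 44.4% of the 9, had groups that did not overlap, against 33.3% of all genes. The median log2 fold change of the 9 was 0.02, beside 0.08 for all tested genes, and the absolute fold changes reached at most 0.42. Without control library 3 the median of the 9 was -0.12, beside -0.01 for all tested genes. None of the 9 passed the thresholds the study set for differentially expressed genes, an adjusted p of at most 0.05 with an absolute log2 fold change above 1, which 3.51% of all genes passed. The paper names DESeq2, DEGseq and edgeR for its own calls. The share given here comes from limma on log2(TPM + 1) and is not the study's share.

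**Figure D1:**
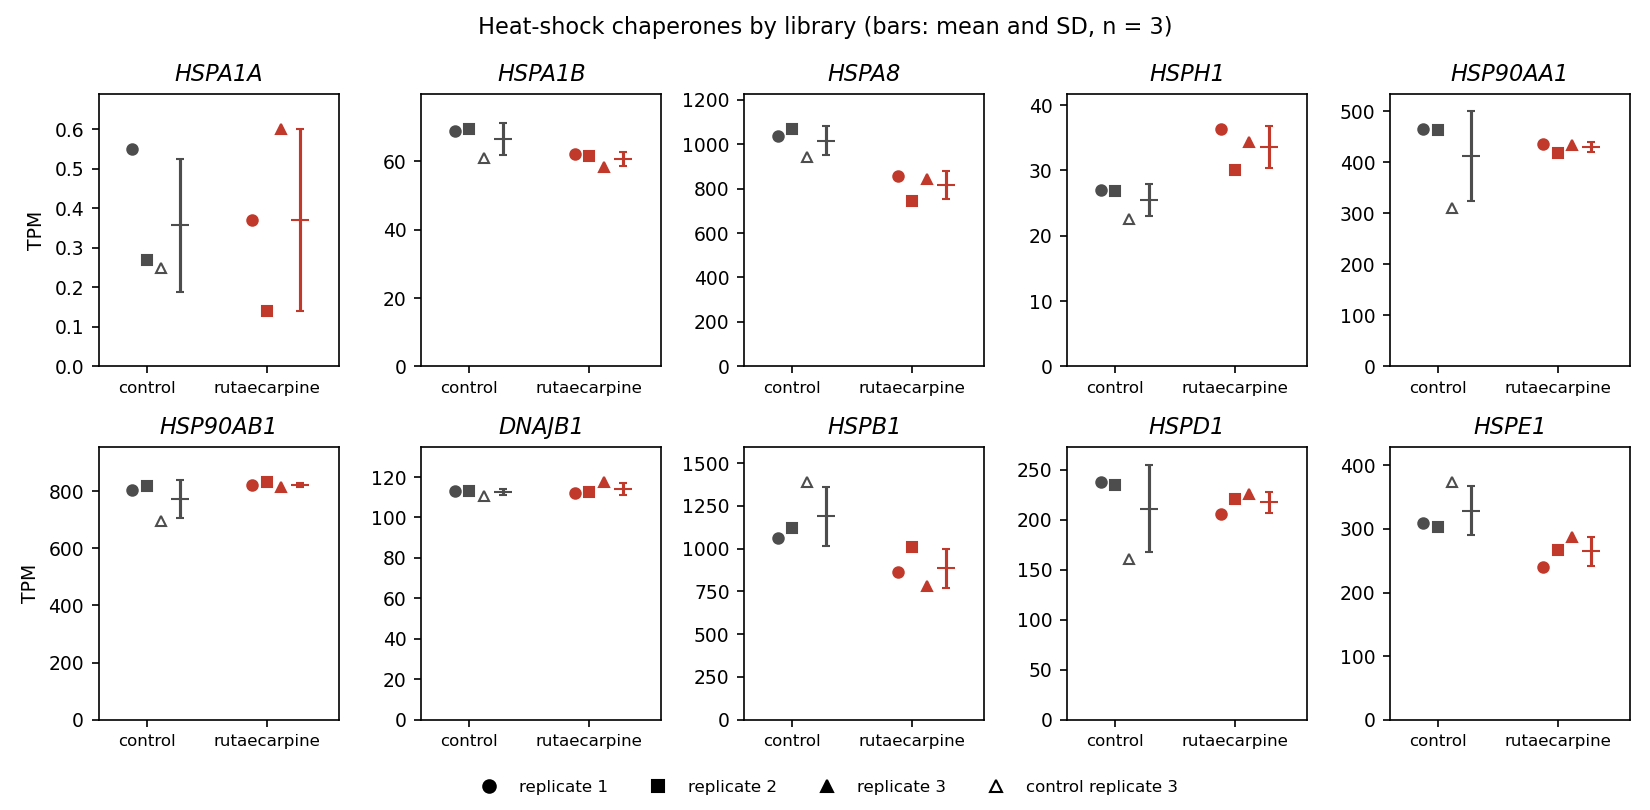
TPM (linear axes from 0, a separate scale for each gene) of the 10 heat-shock chaperones in the 3 control libraries (grey) and the 3 rutaecarpine libraries (red), with the mean and SD of each group beside the points and control replicate 3 as an open triangle. HSPA8, HSPB1 and HSPE1 had all 3 rutaecarpine libraries below the control libraries, HSPH1 had them above, and HSPA1A stayed under 1 TPM throughout.

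In the control group HSPB1 and HSPA8 had the highest levels, and their libraries overlapped. HSP90AB1 came next, followed by HSP90AA1 and HSPE1, which overlapped each other, and then by HSPD1, DNAJB1, HSPA1B, HSPH1 and HSPA1A, each apart from the one before. After rutaecarpine HSPA8 came behind HSP90AB1, though the libraries of HSPB1, HSP90AB1 and HSPA8 overlapped between neighbours in the order. From HSP90AA1 down the order was the same in both groups. The 10 genes together took 4126, 4215 and 4068 TPM in the control libraries and 3637, 3693 and 3598 TPM in the rutaecarpine libraries, lower in each of the latter. The most abundant genes weigh most in this sum. The mean of HSPB1 went from 1190 to 885 TPM and that of HSPA8 from 1016 to 815 TPM. HSPE1 and HSPA1B also had lower means, while HSPH1, HSP90AA1, HSP90AB1, DNAJB1, HSPD1 and HSPA1A had higher ones, so the sum does not describe each gene. In bulk RNA, a smaller number of cells with a transcript and less transcript per cell cannot be told apart.

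HSPA8 encodes the constitutive cytosolic HSP70, which folds new proteins and uncoats clathrin vesicles (ENSG00000109971, chromosome 11, 123057489 to 123063230, minus strand, GRCh38). It stood at 1037, 1067 and 943 TPM in the control libraries and at 859, 742 and 844 TPM after rutaecarpine. Every rutaecarpine library lay below every control library, and the mean was lower by 19.8% (1016 ± 65.0 against 815 ± 63.5 TPM, SD, n = 3). On the log2(TPM + 1) scale the fold change was -0.32 with an SE of 0.09 and a limma adjusted p of 0.0756, which does not pass. The 95% confidence interval of the ratio reached from 0.692 to 0.928. Without control library 3 the gene passed, at a log2 fold change of -0.37 and a limma adjusted p of 0.0152. Of the 9 genes it was the only one whose call changed when any single library was left out.

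HSPA1A and HSPA1B encode the stress-inducible cytosolic HSP70, the classical target of HSF1, from neighbouring intronless copies. HSPA1B (ENSG00000204388, chromosome 6, 31827735 to 31830255, plus strand) stood at 68.8, 69.4 and 61.0 TPM in the control libraries and at 62.0, 61.4 and 58.2 TPM after rutaecarpine. The groups overlapped through control library 3, and the log2 fold change was -0.13 with a 95% confidence interval from -0.34 to 0.08 (limma adjusted p = 0.430). Without that library the groups did not overlap. The log2 fold change was then -0.19 with an interval from -0.36 to -0.02, and it did not pass (limma adjusted p = 0.117). HSPA1A (ENSG00000204389, chromosome 6, 31815464 to 31817946, plus strand) lay between 0.14 and 0.60 TPM in the 6 libraries and was not tested.

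The division between these copies is uncertain. Of the windows of 100 bases in the HSPA1A transcript, 69.9% also occurred in the HSPA1B transcript, so reads from these stretches could not be assigned by sequence and were divided by the quantification. The promoters shown above are alike too, with 93.6% identical positions in the alignment. The sum of both copies avoids the division. It was 66.7 ± 4.78 TPM in the control and 60.9 ± 1.89 TPM in the rutaecarpine group (SD, n = 3), with a log2 fold change of -0.13 and a limma adjusted p of 0.433. HSPA1L, the third HSP70 gene at this locus, stood at 0.71, 0.76 and 0.75 TPM in the control and at 1.16, 1.29 and 0.99 TPM in the rutaecarpine libraries, where low values make any fold unreliable.

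DNAJB1 encodes the main J-domain partner of inducible HSP70, which delivers substrates to it and starts its ATPase (ENSG00000132002, chromosome 19, 14514770 to 14529770, minus strand). Its levels were 113, 113 and 111 TPM in the control libraries and 112, 113 and 117 TPM after rutaecarpine. The groups overlapped and the fold change was the smallest of the 9 genes, 0.02 on the log2 scale with a 95% confidence interval from -0.15 to 0.19 (limma adjusted p = 0.886). Control library 3 lay 0.03 below the mean of the other controls on that scale.

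HSPH1 encodes HSP110, the nucleotide exchange factor that works with HSP70 and DNAJB1 in taking protein aggregates apart (ENSG00000120694, chromosome 13, 31134974 to 31162388, minus strand). It stood at 27.0, 26.9 and 22.6 TPM in the control libraries and at 36.3, 30.1 and 34.3 TPM after rutaecarpine. All rutaecarpine libraries lay above the control libraries, and the mean was higher by 31.8%. The log2 fold change of 0.39 (SE 0.12, 95% confidence interval 0.09 to 0.68) gave a limma adjusted p of 0.114. Without control library 3, the lowest of the 6, it was 0.30 with a limma adjusted p of 0.0855. A correction of each library for transcript length and GC content, added after seeing the data, left a log2 fold change of 0.16 and a limma adjusted p of 0.532.

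HSP90AA1 and HSP90AB1 encode the inducible and the constitutive cytosolic HSP90, which hold kinases, steroid receptors and AhR in a state ready for activation. HSP90AA1 (ENSG00000080824, chromosome 14, 102080738 to 102139699, minus strand) stood at 465, 463 and 310 TPM in the control libraries and at 437, 418 and 435 TPM after rutaecarpine. Its rutaecarpine libraries lay between control library 3 and the other control libraries. The log2 fold change was 0.08 with an interval from -0.29 to 0.46 (limma adjusted p = 0.778), and it was -0.11 without control library 3 (limma adjusted p = 0.227).

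HSP90AB1 (ENSG00000096384, chromosome 6, 44246166 to 44253888, plus strand) stood at 803, 818 and 698 TPM in the control libraries and at 821, 831 and 814 TPM after rutaecarpine. Here too control library 3 was the low one, and the groups overlapped. The log2 fold change was 0.09 with a 95% confidence interval from -0.10 to 0.29 (limma adjusted p = 0.535), and 0.02 without control library 3. The ratio of inducible to constitutive HSP90 transcript was 0.530 ± 0.0741 in the control and 0.523 ± 0.0175 in the rutaecarpine group (SD, n = 3), with a two-sided exact permutation p of 1.

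HSPB1 encodes HSP27, a small heat-shock protein that holds unfolded proteins without using ATP and binds actin and intermediate filaments (ENSG00000106211, chromosome 7, 76302544 to 76304295, plus strand). It stood at 1064, 1119 and 1388 TPM in the control libraries and at 865, 1009 and 782 TPM after rutaecarpine. The groups did not overlap, with rutaecarpine library 2 closest to the control range, and the mean was lower by 25.6%. Its log2 fold change of -0.42 had an SE of 0.14 and a 95% confidence interval from -0.74 to -0.11, the largest absolute change of the 9 genes, but the limma adjusted p was 0.108. Control library 3 was the highest of the 6, and without it the value was -0.31 with a limma adjusted p of 0.0819.

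HSPD1 and HSPE1 encode HSP60 and HSP10, the barrel and the lid of the chaperonin of the mitochondrial matrix. They lie head to head on chromosome 2, with RefSeq starts 105 bases apart, so that the promoter windows searched above share 204 bases. HSPD1 (ENSG00000144381, 197486581 to 197516737, minus strand) stood at 238, 235 and 161 TPM in the control libraries and at 205, 221 and 226 TPM after rutaecarpine. HSPE1 (ENSG00000115541, 197499994 to 197503457, plus strand) stood at 310, 303 and 373 TPM in the control libraries and at 240, 267 and 287 TPM after rutaecarpine.

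HSPE1 was therefore below the control range in every rutaecarpine library, while HSPD1 overlapped it. For HSPE1 the log2 fold change was -0.31 (SE 0.11, 95% confidence interval -0.57 to -0.05, limma adjusted p = 0.143), and for HSPD1 it was 0.06 (interval -0.30 to 0.43, limma adjusted p = 0.832). In control library 3 these neighbours went opposite ways, HSPD1 being 0.55 below and HSPE1 0.28 above the mean of the other controls on the log2 scale. Without that library the log2 fold changes were closer to each other, -0.12 for HSPD1 and -0.21 for HSPE1, and neither passed (limma adjusted p = 0.254 and 0.119). The ratio of HSPE1 to HSPD1 was 1.30, 1.29 and 2.32 in the control libraries and 1.17, 1.21 and 1.27 in the rutaecarpine libraries.

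Of the 4 ratios within the family, 3 had groups that did not overlap. These were HSPE1 over HSPD1 with a log2 difference of -0.37, DNAJB1 over HSPA8 with 0.34, and inducible over constitutive HSP70 (HSPA1A plus HSPA1B over HSPA8) with 0.19. Among single genes 33.3% had groups that did not overlap, and no such share was worked out for ratios. DNAJB1 over HSPA8 and inducible over constitutive HSP70 share their denominator and are not separate results. DNAJB1 over HSPA8 went from 0.111 ± 0.00591 to 0.140 ± 0.0106, and inducible over constitutive HSP70 from 0.0657 ± 0.00102 to 0.0751 ± 0.00699 (SD, n = 3), and in both it was HSPA8 that had the larger difference. The two-sided exact permutation p was 0.1 for each, the smallest that 3 libraries against 3 allow, and 0.133 after adjustment over the 4 ratios, so none could pass. Without control library 3 the log2 difference of HSPE1 over HSPD1 was -0.094, and without rutaecarpine library 2 that of inducible over constitutive HSP70 was 0.115.

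**Figure D2:**
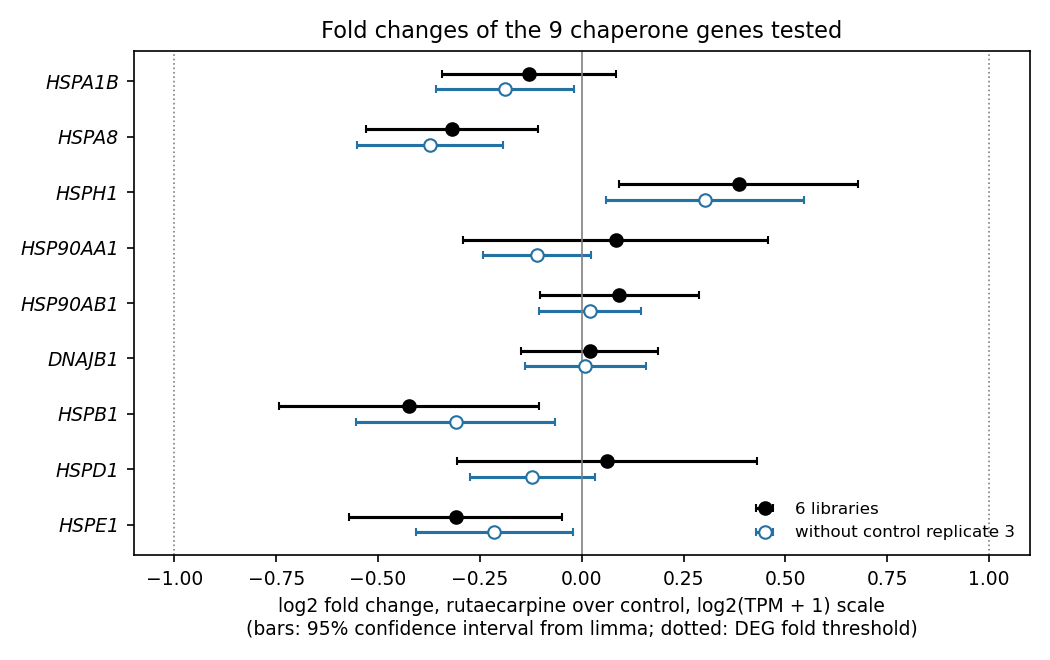
Log2 fold change of the 9 tested heat-shock chaperones, rutaecarpine over control on the log2(TPM + 1) scale, with 95% confidence intervals from limma, from all 6 libraries (black) and without control replicate 3 (blue, open), and dotted lines at the fold threshold for DEGs. All values lay well inside the dotted lines, and HSP90AA1 and HSPD1 moved from 0.08 and 0.06 to -0.11 and -0.12 when control replicate 3 was left out.

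Several of these genes share ground with other transcripts. HSPE1-MOB4, a read-through transcript on the strand of HSPE1, stood at 43.0, 44.1 and 46.0 TPM in the control and at 40.2, 48.1 and 38.0 TPM in the rutaecarpine libraries, with overlapping groups. TECR lies on the strand opposite to DNAJB1 and had means of 249.7 TPM in the control and 186.6 TPM in the rutaecarpine group. Whether the counting used strand is not given in the sources used here, so reads in such overlaps cannot be assigned with certainty. The table also listed 76 pseudogenes of these 10 members, mostly of HSPE1 (26), HSPD1 (18) and HSPA8 (17). Their summed level was between 1.08 and 2.99 TPM in a library and came to at most 0.393% of the level of a member.

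HSF1 itself stood at 53.0, 56.0 and 61.1 TPM in the control libraries and at 68.9, 61.5 and 70.4 TPM after rutaecarpine. Its groups did not overlap, though only by a small margin, and the log2 fold change was 0.24 (SE 0.10, limma adjusted p = 0.204). With libraries weighted by their agreement with the others it was 0.31 and passed (limma adjusted p = 0.0105), as it did without control library 3 on libraries centred on their medians (0.33, limma adjusted p = 0.0228). It passed in no other alternative. With all 6 libraries centred it was 0.14 (limma adjusted p = 0.654), and without control library 3 alone 0.29 (limma adjusted p = 0.0570). The binding protein gene HSBP1 was called in the same settings as HSF1. HSF2, a heat-shock factor with roles in development, had a log2 fold change of -0.10 (limma adjusted p = 0.721). None of the 4 genes listed as heat-shock factors or their binding protein was called with all 6 libraries weighted equally. The main fit called 9.29% of all genes. At an unadjusted p under 0.05 limma gave 1 of the 4, HSF1, against 24.4% of all genes.

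Among 18 further inducible heat-shock genes, 16 were tested, 0 were called higher and 1 was called lower, where 4.6% and 4.68% of all genes were. Their median log2 fold change was 0.02 beside 0.08 for all genes. HSPA6, an HSP70 gene that is nearly silent without stress and carries a 3-unit heat-shock element (TTCGCGAAAGTTC, starting 74 bases upstream of its RefSeq start), stood at 1.54, 1.39 and 1.51 TPM in the control libraries. After rutaecarpine its levels were 1.56, 1.72 and 1.46 TPM, overlapping the control (log2 fold change 0.06, limma adjusted p = 0.851). BAG3, the exchange factor that links HSP70 to autophagy and that is strongly induced by HSF1, had a log2 fold change of 0.13 (limma adjusted p = 0.417). CRYAB, a small heat-shock protein, had one of -0.07 (limma adjusted p = 0.855). The gene that fell was HSPB6, the small heat-shock protein HSP20, which went from 6.58, 7.84 and 10.1 TPM to 2.76, 2.83 and 3.25 TPM (log2 fold change -1.20, SE 0.19, limma adjusted p = 0.01). HSPB6 missed the threshold when rutaecarpine library 1 or 2 was left out (limma adjusted p = 0.0594 and 0.0541).

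Of the 15 HSP90 co-chaperones 0 were called higher and 2 lower, where 4.6% and 4.68% of all genes were, and the median log2 fold change was 0.05. FKBP5, an immunophilin that binds HSP90 in steroid receptor complexes and is a target of the glucocorticoid receptor, fell from 3.84, 4.34 and 1.86 TPM to 1.04, 0.85 and 0.81 TPM (log2 fold change -1.15, SE 0.26, limma adjusted p = 0.0397). CACYBP, which also binds a ubiquitin ligase, fell from 89.6, 76.9 and 78.6 TPM to 60.4, 46.0 and 47.5 TPM (log2 fold change -0.67, SE 0.13, limma adjusted p = 0.0221). Both calls depended on single libraries. FKBP5 passed in 1 of the 6 fits that left out a library, the one without control library 3, and its limma adjusted p reached 0.154 in the others. Its rutaecarpine levels lay near the filter of 1 TPM, where low values make the size of the fold unreliable. Without that filter its limma adjusted p was 0.124. CACYBP passed only without control library 3 or rutaecarpine library 1, and its limma adjusted p reached 0.108.

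The complex that holds AhR was tested as 4 genes, of which none was called, where 9.29% of all genes were. AHR stood at 88.5, 96.2 and 30.2 TPM in the control libraries and at 77.4, 55.3 and 84.8 TPM after rutaecarpine, and control library 3 was the lowest of the 6. Its log2 fold change was 0.16 (limma adjusted p = 0.846). Without that library it was -0.37 (limma adjusted p = 0.181). PTGES3, which encodes p23, had a log2 fold change of -0.05 (limma adjusted p = 0.782). At an unadjusted p under 0.05 limma gave 1 of the 4, against 24.4% of all genes.

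STIP1, the scaffold that hands substrates from HSP70 to HSP90, had a log2 fold change of -0.01 (limma adjusted p = 0.954). Among 20 co-chaperones of HSP70, 19 were tested and none was called, where 9.29% of all genes were. At an unadjusted p under 0.05 limma gave 5 of the 19, 4 higher and 1 lower, against 24.4% of all genes, and their median log2 fold change was 0.08, the same as for all genes. Of the 14 subunits of the cytosolic chaperonin and of prefoldin, which fold actin and tubulin, 1 was called, where 9.29% of all genes were. This was PFDN4, which rose from 89.2, 83.6 and 93.6 TPM to 115, 116 and 117 TPM (log2 fold change 0.38, SE 0.08, limma adjusted p = 0.0272). PFDN4 passed in only 1 of the 6 fits that left out a library, the one without control library 3, and its limma adjusted p reached 0.131 in the others and 0.332 with libraries centred on their medians.

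In the mitochondrion the chaperonin genes HSPD1 and HSPE1 were not called, but 3 of 14 other chaperones and proteases rose and 0 fell, where 4.6% and 4.68% of all genes did. Their median log2 fold change was 0.26 beside 0.08 for all genes. HSPA9, the HSP70 of the matrix that pulls in imported proteins, rose from 222, 228 and 145 TPM to 326, 326 and 373 TPM (log2 fold change 0.81, SE 0.18, limma adjusted p = 0.0351). TIMM44, which tethers HSPA9 to the import channel, rose from 32.6, 31.7 and 32.4 TPM to 42.3, 45.6 and 45.7 TPM (log2 fold change 0.45, SE 0.09, limma adjusted p = 0.0237). LONP1, the main protease of the matrix, rose from 141, 149 and 142 TPM to 177, 204 and 190 TPM (log2 fold change 0.40, SE 0.08, limma adjusted p = 0.0268).

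In all 3 genes the groups were apart, and control library 3 was low in HSPA9 but not in TIMM44 or LONP1. TRAP1, the HSP90 of the matrix, lay the other way, at 28.98, 29.03 and 29.8 TPM in the control and 21.6, 24.0 and 22.7 TPM in the rutaecarpine libraries (log2 fold change -0.35, SE 0.10, limma adjusted p = 0.0797). Without control library 3 TRAP1 passed as lower, at -0.34 and a limma adjusted p of 0.0439. Of the fits that left out a library, TIMM44 and LONP1 passed only in the one without control library 3, and HSPA9 in those without control library 2 or 3. The largest limma adjusted p among them was 0.148 for HSPA9, 0.129 for TIMM44 and 0.123 for LONP1. With libraries centred on their medians, HSPA9 was still called, while TIMM44 and LONP1 were not (limma adjusted p = 0.192 and 0.288).

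**Figure D3:**
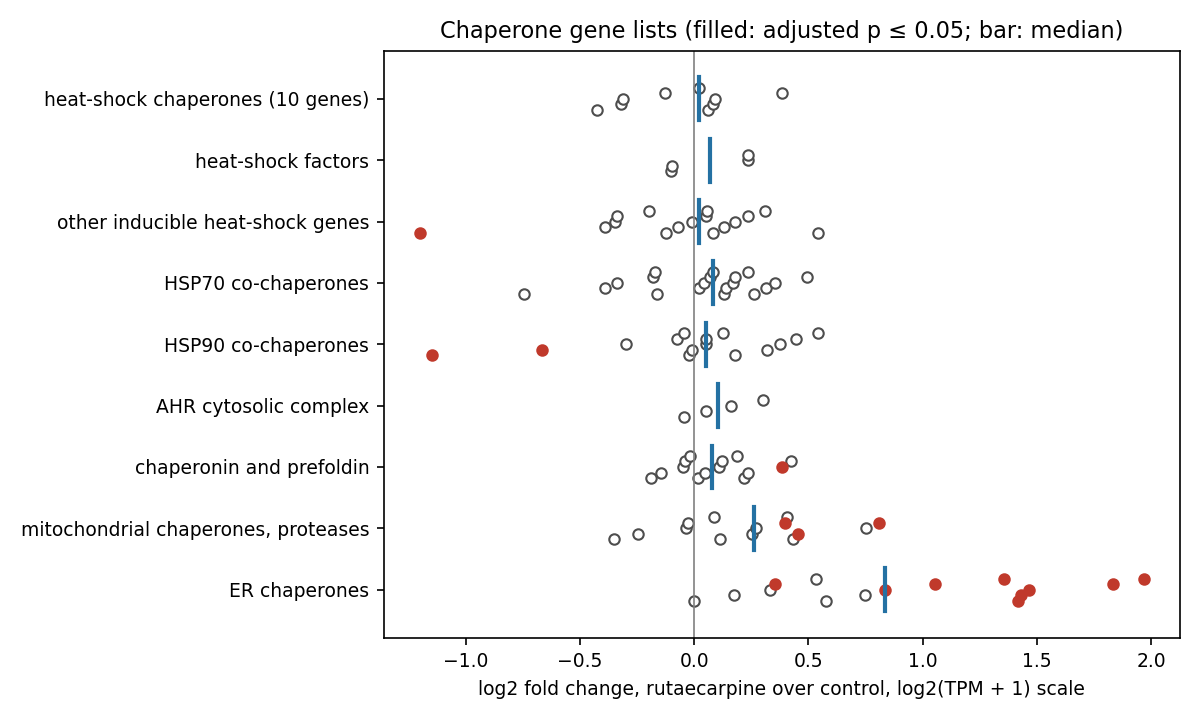
Log2 fold change (rutaecarpine over control, log2(TPM + 1) scale) of each tested gene in the 9 lists, with filled red points for genes with a limma adjusted p of at most 0.05, open points for the others and a blue bar at the median of each list. The 9 tested heat-shock chaperones and the cytosolic lists had medians near 0, with HSPB6 at -1.20 and FKBP5 at -1.15 far from it. The mitochondrial list had a median of 0.26 and the ER list one of 0.83.

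None of the 14 ER chaperones with a promoter entry held a heat-shock element in the window searched. Among all promoters, 13.7% held the element with 2 units and 0.487% the one with 3 units. Whether these elements bear on the levels was not tested. The ER chaperones served as the comparison outside the cytosol and mitochondria. Of 15 genes 9 were called higher and 0 lower, where 4.6% of all genes were called higher, and their median log2 fold change was 0.83. HSPA5, the HSP70 of the ER, whose ER stress element is shown above, rose from 275, 291 and 230 TPM to 859, 1142 and 1132 TPM (log2 fold change 1.97, SE 0.14, limma adjusted p = 0.000540). HSP90B1, the HSP90 of the ER, stood at 645, 642 and 447 TPM in the control libraries and at 795, 886 and 870 TPM after rutaecarpine (log2 fold change 0.58, SE 0.15, limma adjusted p = 0.0610). Without control library 3, the lowest of the 6, HSP90B1 passed as higher, at 0.40 and a limma adjusted p of 0.00621.

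The proportions of the compartments within the HSP70 and HSP90 families are described by 3 ratios, which were added after the values had been seen. HSPA5 over HSPA8 was 0.261 ± 0.0151 in the control and 1.29 ± 0.273 in the rutaecarpine group (SD, n = 3), and the rutaecarpine libraries stood at 1.00, 1.54 and 1.34. HSPA9 over HSPA8 was 0.194 ± 0.0347 and 0.420 ± 0.0358. In the HSP90 family, HSP90B1 over HSP90AB1 was 0.743 ± 0.0892 and 1.03 ± 0.0571. The groups were apart in all 3 added ratios, with log2 differences of 2.29, 1.13 and 0.48, and the exact permutation p was 0.1 for each, the smallest possible. HSPA5, HSPA9 and HSP90B1 had already been seen to be higher in every rutaecarpine library. The separation of the ratios therefore describes those values again and is no independent test. Summed over the lists, the 15 ER chaperones took 3455, 3477 and 2994 TPM in the control libraries, less than the 10 heat-shock chaperones in each, and 4982, 5691 and 5644 TPM in the rutaecarpine libraries, more than the 10 heat-shock chaperones in each.

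**Figure D4:**
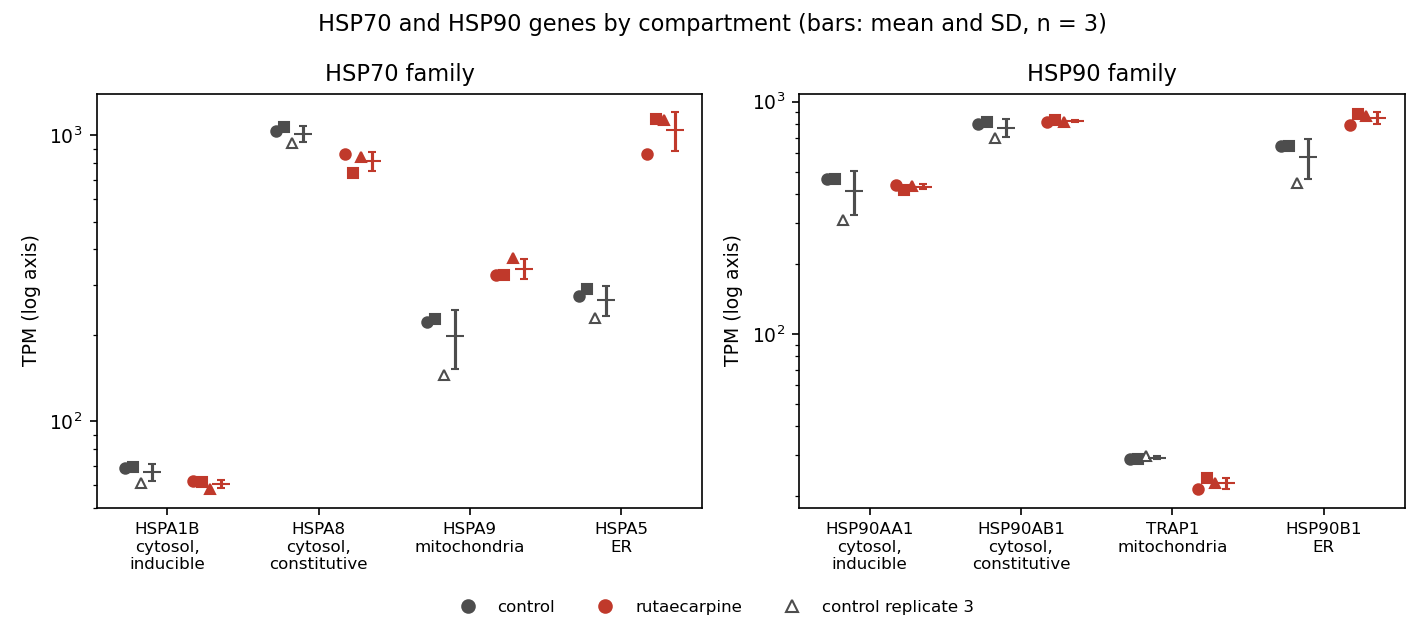
TPM (log axis) of the HSP70 genes (left) and HSP90 genes (right) of the cytosol, mitochondria and ER in each control (grey) and rutaecarpine (red) library, with mean and SD (n = 3) and control replicate 3 as an open triangle. HSPA5 and HSPA9 were higher in all 3 rutaecarpine libraries while HSPA8 was lower, and HSP90AA1 had overlapping groups.

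The genes whose pattern over the 6 libraries was most like that of a chaperone were sought for DNAJB1 and HSPD1 among 8377 genes with a mean of at least 10 TPM. Likeness was measured by Pearson's r of log2(TPM + 1), which here describes these 6 libraries only, since the points share their libraries and their common total. For HSPD1 the closest were SEPTIN7P14 and SRP9 (both 0.989), DYNLT3 and CRYZ (both 0.988) and UHRF2 (0.986). All of these, like HSPD1, were lowest in control library 3, for example SRP9 at 184 TPM there against 216 to 241 TPM elsewhere. For DNAJB1 the closest with a gene name were SLC25A44 (0.980), COQ10A (0.956) and VPS45 (0.951), which had their highest level in rutaecarpine library 3, as DNAJB1 did.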

How the data were processed

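The authors sequenced total RNA libraries of U87 cells on an Illumina instrument, and the values they deposited are TPM per gene, 1 column per library, with 0 columns unmatched to a sample. The submitters' processing notes name RSEM, DESeq2, edgeR and GRCh38.p13. The aligner and annotation release are not given in the sources used here. A pseudocount of 1 was added before taking log2, so that folds of weakly expressed genes come out too small. The 2 groups, taken from the labels, were compared over all 14377 genes that passed the filter with limma 3.58.1 in R 4.3.3 (empirical Bayes with trend, two-sided, no replicate block), with Benjamini-Hochberg adjustment over all of them. Ratios were compared by exact permutation over libraries. Tables and figures were made in Python 3.11.15 with pandas 2.3.3 and matplotlib 3.10.9. The fit was run on simulated data with independent noise. The spread of that noise was taken without control library 3, so the simulation does not cover the part that library plays here. Gene positions are those of GENCODE release 29 on GRCh38, and promoter sequences are those of RefSeq, whose starts can differ. The members and lists were chosen with earlier results of these data known. Named were all members, up to 8 called genes of each list other than the ER list, a set of genes regardless of result, and the 5 genes closest to DNAJB1 and to HSPD1, of which those without a gene name are left out. Of the set named regardless of result, a further gene is not reported here. The alternatives were other scalings, filters, pseudocounts, weights, thresholds, a replicate block and leaving out libraries. The correction for length and GC, the fit without control library 3 with centring, and the 3 compartment ratios were added after seeing the data.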

Additional observations from a re-analysis of the deposited data

How the results depend on the processing

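None of the members tested, 9 of the 10 in all settings but the one without the filter, passed the DEG thresholds in any of the 17 alternatives. The main fit called 662 genes higher and 673 lower among all 14377. With library weights 1 member was called higher (HSPH1) and 3 lower (HSPA8, HSPB1 and HSPE1), beside 1935 and 2027 of 14377 genes. With the length and GC correction 2 were called lower (HSPA8 and HSPB1), beside 1385 of 14267 genes. Without control replicate 3 on centred libraries 1 was called higher (HSPH1) and 1 lower (HSPA8), beside 1401 and 1386 of 14188 genes. Leaving out single libraries gave 0 to 1 called lower and 0 called higher. The 1 was HSPA8 without control replicate 3, where 1466 of 14188 genes were called lower. In the 75 tested genes of the 7 pathway lists, 4 were called higher and 3 lower, where 4.6% and 4.68% of all genes were. In what follows, the number among all tested genes is in brackets. The number higher was 2 (593) with centring, namely HSPA9 and, chosen after its values were seen, GRPEL2. It was 1 (594) without the trend, 2 (453) without the filter on low TPM and 17 (1935) with library weights. Without control replicate 3 on centred libraries it was 10 (1401), and at an adjusted p of at most 0.01 it was 0 (301). When single libraries were left out it was 0 to 7. The number lower was 1 (439) without the filter, 8 (2027) with weights and 6 (1385) with the length and GC correction. Without control replicate 3 on centred libraries it was 5 (1386), and at an adjusted p of at most 0.01 it was 0 (259). When single libraries were left out it was 0 to 6. The upper ends, 7 and 6, were reached without control replicate 3, where 1186 and 1466 of all tested genes were called. The cause of these differences was not tested.

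With the replicate number as a block, 0 members and 0 pathway genes in either direction were called, against 236 higher and 192 lower among all genes. The deviations of libraries with the same number from their group means had correlations of 0.116, -0.266 and -0.215. The highest correlation between the groups, 0.387, was that of control replicate 3 with rutaecarpine replicate 2. With 3 libraries per group and control replicate 3 apart from the others, these values cannot decide whether the numbers mark pairs.

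Several small log2 values changed sign. The log2 ratio of HSP90AA1 over HSP90AB1 ran from -0.131 to 0.0605 when single libraries were left out. HSP90AA1 was -0.00967 with centring, -0.0807 with weights, -0.0111 with the length and GC correction and -0.072 without control replicate 3 on centred libraries, and ran from -0.11 to 0.182 when single libraries were left out. HSP90AB1 was -0.000456 with centring and -0.0186 with the length and GC correction. DNAJB1 was -0.0734 with centring, and ran from -0.00128 to 0.0312 when single libraries were left out. HSPD1 was -0.0301 with centring, -0.124 with weights and -0.0831 without control replicate 3 on centred libraries, and ran from -0.121 to 0.158 when single libraries were left out. HSF2 ran from -0.172 to 0.0291 when single libraries were left out. HSPA6 was -0.0367 with centring. CRYAB was 0.00173 with weights and 0.0745 without control replicate 3 on centred libraries, and ran from -0.191 to 0.0367 when single libraries were left out. STIP1 was 0.0383 with weights and 0.0585 without control replicate 3 on centred libraries, and ran from -0.0324 to 0.0292 when single libraries were left out. AHR was -0.241 with weights, -0.0551 with the length and GC correction and -0.329 without control replicate 3 on centred libraries, and ran from -0.367 to 0.452 when single libraries were left out. Centring moved the median log2 fold change of all genes from 0.08 to -0.01. TPM keep no depth, so small differences could not be set against counting error.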
